A study of Mus musculus with 4 samples.

Results

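Genes of endothelial cell contacts were compared between sorted mouse cell populations: Cdh5, Pecam1, Icam2, Esam, Cldn5, Jam2, Jam3, F11r and Tjp1. They were chosen by name as proteins of endothelial junctions, with earlier results of these data known. The array read the 9 genes on 16 probe sets with 1 gene symbol, of 18193 genes and 34945 such probe sets in all. A probe set is the group of short probes that together give 1 value for a transcript, and each gene is represented by its brightest probe set over the 4 arrays. The cells were Flk-1 positive and came from TT2 embryonic stem cells of the mouse, at day 5 of differentiation on OP9, a stromal line from mouse bone marrow. All of them carried 1 Etv2 allele with a Venus fluorescent reporter knocked in, so cells with both alleles intact were not part of the comparison. The Flk-1+/Etv2+ population, sorted as Venus positive, had 2 arrays, and the Flk-1+/Etv2- population, sorted as Venus negative from the same kind of culture, had 2 arrays. The labels name 1 stem cell line and do not state that the arrays of a population came from separate cultures, so p-values reflect the spread among these arrays alone, and that spread may be technical.

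Endothelial cells are held together by adherens junctions and tight junctions that run along the same cell border. VE-cadherin, the product of Cdh5, is the transmembrane protein of the endothelial adherens junction. Claudin-5, the JAM proteins and ESAM belong to the tight junction, ZO-1, the product of Tjp1, anchors such proteins to the actin cytoskeleton, and PECAM-1 and ICAM-2 are immunoglobulin family proteins of the cell border that also act in the passage of leukocytes. Etv2 is an ETS family transcription factor needed for the blood and endothelial lineages, and Flk-1 is the VEGF receptor encoded by Kdr.

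Values are the authors' log2 expression levels, on which 1 unit is a factor of 2, and differences are Etv2+ minus Etv2-. The medians of all probe sets were 5.46 and 5.49 on the Etv2+ arrays and 5.50 and 5.52 on the Etv2- arrays, and a probe set below its array's median is called dim here. Etv2 itself measured 12.64 and 12.41 in Etv2+ cells, against 12.03 and 11.87 in Etv2- cells, a difference of 0.57 (SE 0.13) or 1.49-fold. The transcript was thus far above the array median in the cells labelled Etv2- too, so Etv2- here names the sort on Venus and not cells without Etv2 transcript. Kdr, the sort marker of both populations, measured 12.64 and 12.81 in Etv2+ cells, against 12.51 and 12.68 in Etv2- cells, and the groups overlapped. The 8 endothelial markers followed averaged 7.26 and 7.07 on the Etv2+ arrays and 6.31 and 6.32 on the Etv2- arrays, and 2 of them, Emcn and Vwf, were dim on all 4 arrays. In whole populations such as these, fewer expressing cells and less RNA per cell cannot be told apart.

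Of the 9 junction genes, 4 stood close to 2-fold higher in Etv2+ cells, 3 were higher by a smaller amount and 2 differed little. Cdh5, Esam, Cldn5 and Icam2 formed the first group, with differences from 0.98 to 1.08. Pecam1, F11r and Tjp1 formed the second, with 0.57, 0.44 and 0.38, and Jam2 and Jam3 the third, with 0.03 and -0.08. In limma, with Benjamini-Hochberg adjustment over 18193 genes at a threshold of 0.05, 0 of the 9 passed in either direction, and 0% of all genes passed as higher and 0% as lower. At an unadjusted p under 0.05 limma counted 7 of the 9 as higher and 0 as lower, beside 7.07% and 4.64% of all genes. For the same 7 genes both Etv2+ arrays lay above both Etv2- arrays, as they did for 22.4% of all genes, and for 0 of the 9 both lay below, beside 17.0% of all genes. The difference was above 0 for 8 of the 9, beside 52.9% of all genes. Differences of at least 2-fold were seen for 3 of the 9, Esam, Cldn5 and Icam2, beside 0.599% of all genes. The median difference was 0.57 over the 9 genes and 0.01 over all genes. Because the 9 were chosen with earlier results of these data known, their excess over all genes is a description only.

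**Figure D1:**
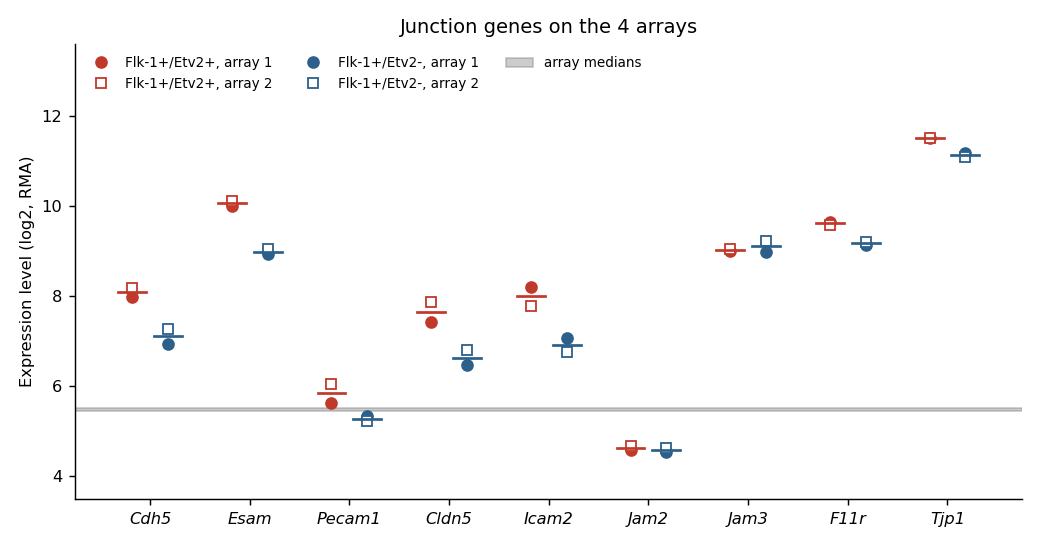
Expression level (log2, RMA) of the 9 junction genes on each array, with Flk-1+/Etv2+ in red and Flk-1+/Etv2- in blue, filled circles for array 1, open squares for array 2, and bars for the group means. The grey band spans the array medians. Both red points lie above both blue points for all genes but Jam2 and Jam3, and heights are not comparable between genes.

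Cdh5 was read at 7.98 and 8.19 in Etv2+ cells, against 6.95 and 7.27 in Etv2- cells. Both Etv2+ arrays lay above both Etv2- arrays, and array 2 was the higher in each population. The difference was 0.98 (SE 0.15, 95% interval 0.58 to 1.38), which is 1.97-fold, and 99.4% of all genes had a smaller difference. It was larger than the spread within the groups, which was 0.15 in Etv2+ and 0.23 in Etv2- cells (SD, n = 2 each), but it missed the threshold over all genes (limma adjusted p = 0.112). A further Cdh5 probe set was dim on all 4 arrays, at 4.05 and 4.00 in Etv2+ cells and 3.83 and 3.93 in Etv2- cells. Its difference was 0.15 (SE 0.10), so that the mean over both probe sets of Cdh5 gave 0.56.

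Esam, an immunoglobulin family protein of endothelial tight junctions and platelets, measured 10.004 and 10.123 in Etv2+ cells, against 8.94 and 9.04 in Etv2- cells. The groups were far apart relative to their spread, with SDs of 0.08 and 0.07 (n = 2 each). The difference was 1.07 (SE 0.10, 95% interval 0.81 to 1.34), or 2.11-fold. Its limma adjusted p of 0.067 was the smallest among the 9 genes, and it equalled the smallest of any gene, which 66 genes shared. With limma's mean-variance trend and robust estimation Esam passed as the only one of the 9 (adjusted p = 0.039), where 0.445% of all genes passed as higher and 0.170% as lower. When limma with this estimation was fitted over 45037 probe sets, Esam did not pass (adjusted p = 0.123). In that fit 0 of the 16 junction probe sets passed.

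Icam2, a ligand of leukocyte integrins that is present on resting endothelium, measured 8.21 and 7.79 in Etv2+ cells, against 7.06 and 6.77 in Etv2- cells. Here array 1 was the higher in each population, the reverse of Cdh5, and the groups still did not overlap. The difference was 1.08 (SE 0.19, 95% interval 0.59 to 1.58), or 2.12-fold, the largest of the 9 and above that of 99.6% of all genes (limma adjusted p = 0.131). Pecam1, also known as CD31, was close to the array medians, at 5.64 and 6.06 in Etv2+ cells and 5.33 and 5.22 in Etv2- cells. Both Etv2- arrays were dim, and the Etv2+ arrays differed from each other by 0.42. The Pecam1 difference was 0.57 (SE 0.16, 95% interval 0.14 to 1.004; limma adjusted p = 0.294), and without array 2 of Etv2+ it was 0.36. Within the arrays numbered 1 it was 0.31 and within those numbered 2 it was 0.84.

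Pecam1, Icam2, F11r and Esam are also expressed by leukocytes or platelets, so markers of these cells were read beside them. Of 9 such markers, 4 were higher in Etv2+ cells at an unadjusted p under 0.05 in limma and 1 was lower, beside 7.07% and 4.64% of all genes. The higher ones were Itga2b at 0.70 (SE 0.11), Itgb2 at 0.56 (SE 0.14), Mpo at 0.43 (SE 0.11) and Spi1 at 0.26 (SE 0.09). Ptprc was lower, at -0.30 (SE 0.10). The summed level of the 9 markers was 49.1 and 47.9 on the Etv2+ arrays and 47.3 and 46.8 on the Etv2- arrays. Itga2b, an integrin of platelets and early blood progenitors, measured 8.66 and 8.46 in Etv2+ cells, against 7.82 and 7.90 in Etv2- cells, while the platelet genes Gp1bb, Gp9 and Pf4 differed by -0.16, -0.01 and 0.04. Dim on all 4 arrays were 5 of them, Ptprc, which encodes the leukocyte antigen CD45, Mpo of granulocytes, Itgb2 of leukocytes and the platelet genes Pf4 and Gp9. The part of such cells in the junction results was not tested.

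Cldn5, the main claudin of endothelium, measured 7.42 and 7.87 in Etv2+ cells, against 6.46 and 6.81 in Etv2- cells. The groups did not overlap, and array 2 was the higher in each, as for Cdh5. The difference was 1.01 (SE 0.20, 95% interval 0.48 to 1.55), or 2.02-fold (limma adjusted p = 0.155). The claudins Cldn1, Cldn3, Cldn4, Cldn6 and Cldn7, known from epithelia, had differences between -0.30 and 0.31, and Cldn1 was dim on all 4 arrays. The epithelial list of 12 markers that holds these claudins had a median of -0.26, and 2 of its markers were dim on all 4 arrays. At an unadjusted p under 0.05 in limma 3 were lower and 0 higher, beside 4.64% and 7.07% of all genes.

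The tight junction genes of the JAM family did not share 1 pattern. F11r, which encodes JAM-A of epithelium, endothelium and platelets, measured 9.66 and 9.57 in Etv2+ cells, against 9.14 and 9.21 in Etv2- cells. The groups did not overlap, and the difference was 0.44 (SE 0.09, 95% interval 0.20 to 0.68), or 1.36-fold (limma adjusted p = 0.165). Jam3, which encodes JAM-C, was read at 9.01 and 9.05 in Etv2+ cells, against 8.99 and 9.23 in Etv2- cells. Both Etv2+ arrays lay between the Etv2- arrays. The Jam3 difference was -0.08 (SE 0.12; limma adjusted p = 0.882) and its 95% interval, -0.39 to 0.23, leaves out a change of 2-fold in either direction. A further Jam3 probe set, dim on all 4 arrays, gave 0.17 (SE 0.12), so the sign of this gene differed between its probe sets.

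Jam2, which encodes JAM-B of endothelial junctions, had 5 probe sets and all of them were dim on all 4 arrays. The brightest measured 4.58 and 4.67 in Etv2+ cells, against 4.55 and 4.64 in Etv2- cells. The groups overlapped, and the difference was 0.03 (SE 0.10, 95% interval -0.22 to 0.28; limma adjusted p = 0.959). The other 4 lay between -0.18 and 0.21 and differed in sign. Differences between values this low are compressed near background, so a difference in Jam2 may not have been detectable.

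Tjp1, the scaffold ZO-1 of tight junctions in epithelium and endothelium, measured 11.51 and 11.51 in Etv2+ cells, against 11.19 and 11.09 in Etv2- cells. The groups did not overlap, although the size was modest. The difference was 0.38 (SE 0.09, 95% interval 0.14 to 0.62), or 1.30-fold (limma adjusted p = 0.220).

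**Figure D2:**
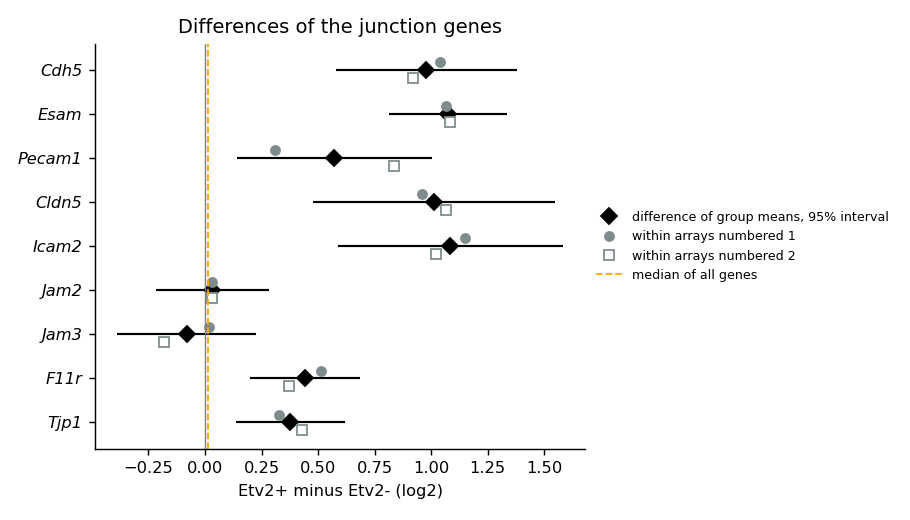
Difference between Etv2+ and Etv2- (log2) for each junction gene, with the difference of group means and its 95% interval as a diamond and a line, and the differences within the arrays numbered 1 and 2 as grey symbols. The orange line is the median of all genes. Esam, Icam2, Cldn5 and Cdh5 lie near 1, Pecam1 has the widest gap between the numbers, and the intervals of Jam2 and Jam3 include 0.

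The 7 further probe sets of the 9 genes, which belong to Cdh5, Jam2, Jam3 and F11r, were dim on all 4 arrays. Their differences ran from -0.18 to 0.22, and 0 of the 7 had an unadjusted p under 0.05 in limma, fitted over 45037 probe sets. The further F11r probe set, of a type that can bind related transcripts, measured 4.03 and 3.503 in Etv2+ cells and 3.76 and 3.34 in Etv2- cells. The results for Cdh5 and F11r therefore rest on 1 probe set each, as they do for the 5 genes that have no other.

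**Figure D3:**
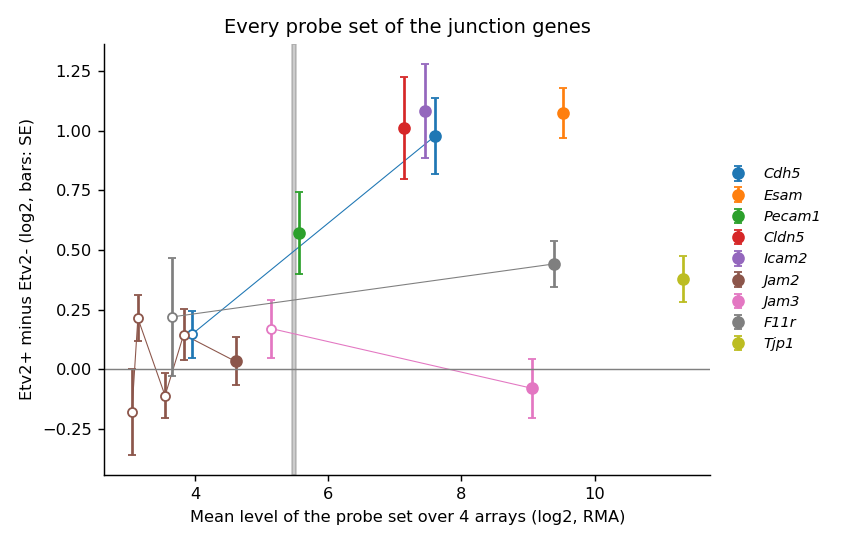
Difference between Etv2+ and Etv2- (log2, bars are SE) against the mean level over the 4 arrays for the 16 probe sets of the junction genes. Filled symbols are the brightest probe set of each gene, open symbols the further ones, lines join probe sets of 1 gene, and the grey band spans the array medians. The open symbols are all left of the band, with differences from -0.18 to 0.22.

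Promoter sequence was available for 3 of the genes that were higher in Etv2+ cells, Cldn5, F11r and Tjp1. The sequences are shown because Etv2 is an ETS factor and such factors bind DNA around a GGAA core. Each is the 250 bases before the gene's start from RefSeq (GRCm38.p6), 5′ to 3′ on the gene's strand, with GGAA or its complement TTCC in capitals. The Cldn5 stretch is chr16:18776597-18776846 on the plus strand, that of F11r is chr1:171437311-171437560 on the plus strand and that of Tjp1 is chr7:65371245-65371494 on the minus strand.
Cldn5: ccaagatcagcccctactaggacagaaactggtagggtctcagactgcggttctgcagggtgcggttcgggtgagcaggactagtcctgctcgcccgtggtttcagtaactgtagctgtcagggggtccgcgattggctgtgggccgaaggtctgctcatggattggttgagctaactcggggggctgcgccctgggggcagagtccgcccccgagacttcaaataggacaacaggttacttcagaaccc
F11r: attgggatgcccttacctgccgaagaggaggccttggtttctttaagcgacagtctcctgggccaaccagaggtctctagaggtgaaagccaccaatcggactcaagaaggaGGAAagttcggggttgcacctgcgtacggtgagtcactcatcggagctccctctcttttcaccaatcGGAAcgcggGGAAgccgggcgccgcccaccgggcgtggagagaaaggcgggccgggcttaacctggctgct
Tjp1: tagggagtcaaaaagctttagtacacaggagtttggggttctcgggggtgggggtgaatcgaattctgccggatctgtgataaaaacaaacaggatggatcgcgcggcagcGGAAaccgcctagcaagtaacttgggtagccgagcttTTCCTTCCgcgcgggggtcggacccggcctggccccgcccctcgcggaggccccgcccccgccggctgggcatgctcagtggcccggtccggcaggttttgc
The core was found at 0 places in the Cldn5 stretch, at 3 in that of F11r and at 3 in that of Tjp1, where TTCC occurs back to back. Over 32851 RefSeq stretches of this length 93.4% held the core, with a median of 3 places, so its presence in F11r and Tjp1 is what most promoters show. The longer forms CCGGAA and CAGGAA, each searched on both strands and each including the core, were found in none of the 3, against 12% and 25.7% of all stretches. The forkhead motif GTAAACA and the TATA motif TATAAA were also found in none of the 3, against 3.17% and 12.4%. These letters describe the window alone. Variants of the core such as GGAT were not searched, nor were enhancers and introns.

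The profile of Cdh5 over the 4 arrays was compared with that of every other gene with a mean of at least 6, of which there were 10178. The measure was the root mean square distance between values centred on each gene's own mean. The 5 nearest genes were Tspan18, Scarf1, Def6, Fam110c and Adgra2, at distances from 0.032 to 0.041 log2 units over the 4 arrays. Adgra2 encodes GPR124, a receptor of brain vessel endothelium, and Scarf1 encodes a scavenger receptor found on endothelial cells. No such link to endothelium is given here for Tspan18, Def6 and Fam110c. Tspan18 measured 8.68 and 8.90 in Etv2+ cells, against 7.58 and 7.99 in Etv2- cells. Among the junction genes Cldn5 was the nearest to Cdh5, at 0.088, followed by Esam at 0.098. Icam2 was at 0.317, and its arrays ran in the opposite order within each population. With 4 arrays such likeness is a description only.

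**Figure D4:**
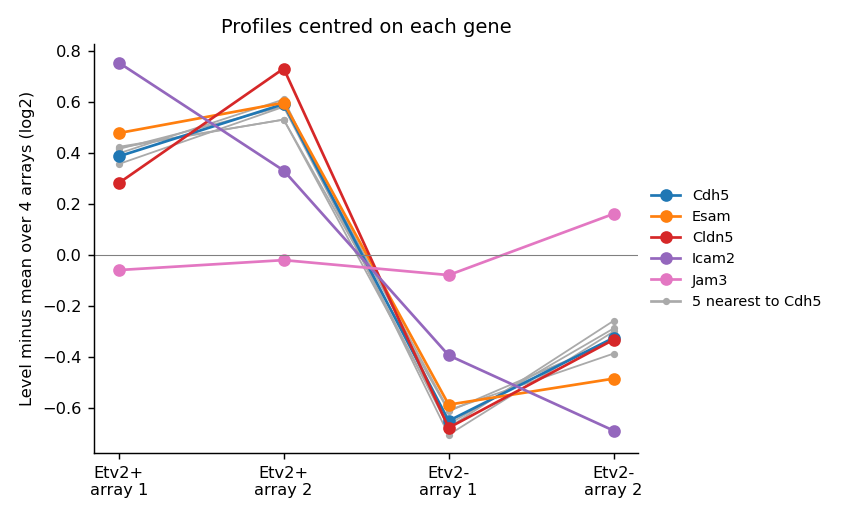
Level on each array minus the gene's mean over the 4 arrays (log2), with Etv2+ arrays on the left and Etv2- arrays on the right. Coloured lines are Cdh5, Esam, Cldn5, Icam2 and Jam3, and grey lines are the 5 genes nearest to Cdh5. Cldn5 and Esam follow Cdh5, Icam2 has the arrays of each population in the opposite order, and Jam3 stays near 0.

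Genes that act with these proteins were read next, from 5 lists. VE-cadherin is tied to actin through catenins, and of 12 measured adherens junction partners 1 was higher and 0 lower at an unadjusted p under 0.05 in limma, a count near the 7.07% and 4.64% of all genes. The median difference of this list was -0.05, against 0.57 for the 9 junction genes and 0.01 for all genes. Ctnnb1, which encodes beta-catenin, measured 13.57 and 13.62 in Etv2+ cells, against 13.65 and 13.67 in Etv2- cells, a difference of -0.06 (SE 0.09). Ptprb, the phosphatase VE-PTP that associates with VE-cadherin, measured 7.18 and 7.13 in Etv2+ cells and 6.80 and 6.69 in Etv2- cells (difference 0.41, SE 0.09; limma adjusted p = 0.203). Nectin2, an adhesion protein of adherens junctions, differed by 0.21 (SE 0.10) and Ptprj, a receptor phosphatase of endothelial and other cells, by -0.75 (SE 0.39).

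Of 19 measured tight junction scaffold and polarity genes, 4 were higher and 1 was lower at an unadjusted p under 0.05 in limma, beside 7.07% and 4.64% of all genes, with a median of 0.06. Magi3, a membrane-associated scaffold with PDZ domains, measured 10.53 and 10.44 in Etv2+ cells, against 9.69 and 9.70 in Etv2- cells. Its difference was 0.79 (SE 0.09), with a limma adjusted p of 0.080 and of 0.039 with trend and robust estimation. Ocln, the transmembrane protein occludin, was dim on all 4 arrays and differed by 0.73 (SE 0.11), at 5.24 and 5.46 in Etv2+ cells and 4.64 and 4.59 in Etv2- cells. Cgnl1, paracingulin, differed by 0.48 (SE 0.10). The 1 lower gene, Pard6b of the polarity complex, had the largest difference of the list in size, at -0.83 (SE 0.28), and was chosen after its value was seen.

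Rap1 is a small GTPase that tightens endothelial junctions, and of 14 measured genes of Rap1 and cerebral cavernous malformation (CCM) signalling 4 were higher and 0 lower at an unadjusted p under 0.05 in limma, beside 7.07% and 4.64% of all genes, with a median of 0.15. Rasip1, a Rap1 effector of endothelial cells, measured 8.75 and 8.70 in Etv2+ cells, against 7.42 and 7.45 in Etv2- cells, a difference of 1.29 (SE 0.09; limma adjusted p = 0.067). The Rap1 genes themselves, Rap1b and Rap1a, differed by 0.37 (SE 0.09) and 0.33 (SE 0.10). Radil, a relative of Rasip1, lay in the other direction, at 6.53 and 5.88 in Etv2+ cells and 7.68 and 6.59 in Etv2- cells.

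Other adhesion molecules of cell contacts went both ways, with 4 of 11 higher and 3 lower at an unadjusted p under 0.05 in limma, beside 7.07% and 4.64% of all genes, and a median of -0.02. Mcam, also known as CD146 of endothelial contacts, measured 7.73 and 7.79 in Etv2+ cells, against 6.96 and 7.08 in Etv2- cells, a difference of 0.74 (SE 0.10; limma adjusted p = 0.089). Icam1, a leukocyte adhesion molecule, differed by 0.64 (SE 0.12) and Cd47, a ligand of SIRP-alpha, by 0.46 (SE 0.09). Cxadr and Clmp, immunoglobulin family proteins of epithelial tight junctions that resemble the JAM proteins, were on the other side at -0.60 (SE 0.14) and -0.59 (SE 0.17). The leukocyte adhesion molecule Vcam1 was dim on all 4 arrays and differed by -0.33 (SE 0.10). All 3 were chosen after their values were seen. Of 4 connexins, which form gap junctions, 1 was higher and 1 lower by that count, beside the same shares of all genes, with a median of -0.17. Gja4 of arterial endothelium differed by 1.01 (SE 0.30) and Gja1, the widely expressed connexin 43, by -0.40 (SE 0.10). Gja5, also arterial, was dim on all 4 arrays and differed by -0.18 (SE 0.09), and Gjc1 differed by -0.15 (SE 0.10). In these 5 lists 0 genes passed the adjusted threshold in limma.

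**Figure D5:**
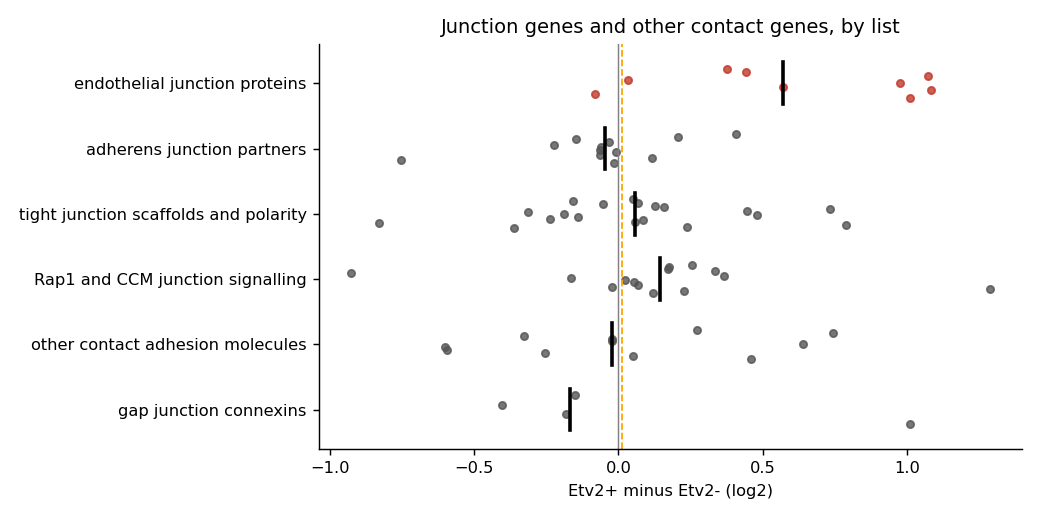
Difference between Etv2+ and Etv2- (log2) for each measured gene, by list, with the junction genes in red, other lists in grey and black bars at the list medians. The orange line is the median of all genes. The junction genes have a median of 0.57, while the medians of the other 5 lists shown lie between -0.17 and 0.15.

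Markers of other cells that such cultures can hold were read at an unadjusted p under 0.05 in limma, by which 4.64% of all genes were lower and 7.07% higher, and 0 of these markers passed the adjusted threshold. Of 7 nascent mesoderm markers 6 were lower in Etv2+ cells and 0 higher, with a summed level of 63.3 and 60.3 in Etv2+ cells, against 73.2 and 70.3 in Etv2- cells. Markers of OP9 stroma and fibroblasts had 2 of 10 lower and 0 higher by that count. Their summed level was 68.3 and 60.9 on the Etv2+ arrays and 70.1 and 63.7 on the Etv2- arrays, so array 1 was the higher in each population by more than the populations differed. Primitive erythroid markers had 0 of 5 in either direction, but 3 of the 5 were dim on all 4 arrays. Endothelial markers had 6 of 8 higher and 0 lower, and their median difference of 0.91 was above the 0.57 of the junction genes. Among them was Tek, the TIE2 receptor, at 9.42 and 9.11 in Etv2+ cells and 8.01 and 7.84 in Etv2- cells. The part of other cells in the junction results was not tested.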

How the data were processed

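The deposited values are log2 expression levels per probe set, for which the submitters' processing notes name RMA and R 2.8.0. Total RNA had been labelled with biotin by a 3' IVT kit, per the labels' protocols. The values span 2.16 to 14.93, from which the log base was read. RMA normalizes between arrays and compresses differences near background. No detection calls or scanner files were used, and the number of arrays limits the precision.

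Groups and array numbers came from the sample titles. Symbols came from the platform annotation, with 34945 probe sets of 1 symbol, 932 of several and 9160 not listed in the table used, besides 64 controls. Of those with 1 symbol 34741 matched a RefSeq gene by Entrez identifier and 0 symbols changed. Per gene the probe set with the highest mean was kept. The populations were compared in limma 3.58.1 (lmFit and eBayes, R 4.3.3) with a term for the group alone, two-sided, 2 residual and 2.68 prior degrees of freedom and Benjamini-Hochberg adjustment over 18193 genes. The fit was run beforehand on simulated data, where only the mean estimate of planted differences was checked. The share of planted differences called is not given here. The 9 genes, the lists and the alternatives were chosen with earlier results of these data known. The text names all 9 genes, Etv2 and Kdr, up to 3 genes of smallest p per pathway list and the 5 nearest to Cdh5. Ctnnb1, Radil, Pard6b, Cxadr, Clmp, Vcam1, Gjc1 and the single markers named were chosen after their values were seen. Listed genes without a match were not used here. Alternatives were every probe set, the mean over probe sets, probe sets without the suffixes _s_at and _x_at, a mean of at least 6, a trend with robust estimation, quantile normalization, median centring, a block for the array number, and each array left out in turn. Figures were drawn with matplotlib 3.10.9.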

Additional observations from a re-analysis of the deposited data

How the results depend on the processing

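The direction of Cdh5, Esam, Cldn5, Icam2, Pecam1, F11r and Tjp1 held under each alternative that gave them a value, but most alternatives could not reverse it. Every probe set, a mean of at least 6, the trend and the block leave a gene's difference itself unchanged. Both Etv2+ arrays of these genes lay above both Etv2- arrays, so leaving out 1 array could not turn the sign. Leaving out 1 array gave 0.81 to 1.14 for Cdh5, 1.01 to 1.13 for Esam, 0.79 to 1.24 for Cldn5, 0.87 to 1.30 for Icam2, 0.36 to 0.78 for Pecam1, 0.40 to 0.48 for F11r, 0.33 to 0.43 for Tjp1, -0.01 to 0.08 for Jam2 and -0.20 to 0.04 for Jam3. Such fits have 1 residual degree of freedom and assume that the lone array varies like the other group, and they called 0 genes among the 9, the other junction lists, the 16 probe sets and all genes. Jam2 turned to -0.01 without array 1 of Etv2- and without array 2 of Etv2+, and Jam3 turned to 0.04 without array 2 of Etv2- and with the mean over probe sets. Pecam1 and Jam2 had no value among genes with a mean of at least 6.

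Calls differed between settings, and the cause was not tested. Partners here are genes of the other junction lists, which held 12, 19, 14, 11 and 4 measured genes. The trend, quantile normalization, median centring and the block were fitted over 18193 genes. With a mean of at least 6 limma called 66 genes higher and 13 lower of 10179 genes. Among them were 1 of the junction genes (Esam, adjusted p = 0.0429) and 1 listed partner. With a trend and robust estimation it called 81 (0.445%) and 31 (0.170%), 1 junction gene (Esam, 0.039) and 2 partners. Quantile normalization gave 92 and 43, 1 junction gene (Esam, 0.0491) and 2 partners, and median centring gave 190 and 91, 2 junction genes (Esam, 0.0327, and Icam2, 0.0352) and 2 partners. The adjusted p of Esam ran from 0.0133 to 0.399 over 13 alternatives. With every probe set, the mean over probe sets, or no _s_at and _x_at probe sets limma called 0 genes. With probe sets fitted in place of genes, a mean of at least 6, the trend, quantile normalization and median centring each called 0 of the 16 junction probe sets. The calls of Esam and Icam2 in those settings thus depended on keeping 1 probe set per gene. Taking the array number as a replicate block called 0 genes, 0 junction genes and 0 of the 16 probe sets. The labels do not say that a number marks a shared culture, while the deviations of same-numbered arrays correlated at 0.543 across genes, which are not independent. The block combined with trend and robust estimation was added after seeing the data and has 1 residual degree of freedom. It called 616 of 18193 genes higher and 361 lower, and 10 partners higher and 3 lower. Of the 9 junction genes it called 6 higher (all but Pecam1, Jam2 and Jam3). Of the 16 junction probe sets it called 5, but the share called over all probe sets was not computed.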
